A study of Mus musculus with 2 samples.

Results

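Microexons are internal exons so short that each adds only a few amino acids to a protein. The microexons described here are the internal exons of 3 to 30 bases that the mouse annotation GENCODE M21 holds in known genes. The members were chosen by their annotated length and by read coverage: a microexon was kept where at least 5 long reads, pooled over both libraries, ran from before its start to beyond its end. This left 1155 microexons in 897 genes, of 93824 annotated internal exons of any length that met the same read minimum. The annotation files list 2843 microexons in 2018 genes, and 1652 of them had at least 1 such spanning read. What was measured is inclusion, the percent of spanning reads whose model holds exactly the annotated exon, with both of its edges.

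The RNA was total RNA of gastrocnemius, the large calf muscle, from female mice aged 14 days. The mice were B6CASTF1/J, the first-generation hybrid of C57BL/6 and CAST, and no treatment or induced mutation is named. There is 1 group of 2 libraries, replicate 1 and replicate 2, each made from 2 µg of RNA, so no comparison between conditions exists. The biosample label of replicate 1 speaks of 3 females and that of replicate 2 of a single female, both under the same donor entry, and whether RNA was pooled is not given. Differences between the libraries may therefore hold animal, pooling and technical spread together.

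Microexons are best known from neurons, where the splicing activator Srrm4 drives the inclusion of many of them and where many change surfaces by which proteins bind each other. Striated muscle also includes a set of its own, under factors such as Rbfox, Mbnl and Celf proteins. Because splicing factors have little room to bind inside such an exon, signals in the neighbouring introns carry much of its recognition. Exons whose length is a multiple of 3 can be taken or left without changing the reading frame downstream.

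The sequences below show microexons on which the results turn, the exon in capitals and up to 10 bases of the neighbouring exons of the same transcript in lower case, read 5′ to 3′. They were read from the GENCODE M21 transcript sequences, all 1155 microexons had one, and positions are on mm10. The first set is the 28-base exon that the sarcomeric myosin heavy chain genes share, shown because the motor protein genes of the muscle fibre carried it in almost every read.
Myh4 (chr11:67242141-67242168, plus strand): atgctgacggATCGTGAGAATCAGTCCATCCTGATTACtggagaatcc
Myh1 (chr11:67203576-67203603, plus strand): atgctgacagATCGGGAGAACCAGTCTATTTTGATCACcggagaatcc
Myh2 (chr11:67176144-67176171, plus strand): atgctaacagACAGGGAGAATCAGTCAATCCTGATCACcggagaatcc
Myh7 (chr14:54991716-54991743, minus strand): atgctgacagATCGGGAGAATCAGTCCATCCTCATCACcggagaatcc
Myh8 (chr11:67283252-67283279, plus strand): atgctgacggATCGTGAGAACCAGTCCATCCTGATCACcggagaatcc
Myh3 (chr11:67083399-67083426, plus strand): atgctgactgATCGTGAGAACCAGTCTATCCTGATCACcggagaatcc

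The second set compares microexons of 4 to 18 bases that are annotated in every coding transcript of their genes but were read in very different shares.
Atp2a1, 18 bases (chr7:126462500-126462517, minus strand): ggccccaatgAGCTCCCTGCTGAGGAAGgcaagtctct
Atp2a2, 18 bases (chr5:122500931-122500948, minus strand): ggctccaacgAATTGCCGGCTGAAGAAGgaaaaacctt
Trdn, 18 bases (chr10:33333232-33333249, plus strand): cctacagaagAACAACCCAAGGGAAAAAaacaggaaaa
Hnrnpk, 16 bases (chr13:58393853-58393868, minus strand): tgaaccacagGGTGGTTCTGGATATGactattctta
Tnni2, 7 bases (chr7:142442691-142442697, plus strand): ggatgggagaTGAGGAGaagcgcaaca
Tnni1, 4 bases (chr1:135803282-135803285, plus strand): tgccggaagtTGAGaggaaatcca

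The third set holds microexons that the reads included only in part, with the upstream 12-base exon of Dnm2, in no read, beside the downstream one, and the 18-base exon of Pdlim5, read in most molecules.
Myl1, 25 bases (chr1:66934518-66934542, minus strand): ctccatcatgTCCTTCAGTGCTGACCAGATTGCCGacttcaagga
Myl1, 28 bases (chr1:66934246-66934273, minus strand): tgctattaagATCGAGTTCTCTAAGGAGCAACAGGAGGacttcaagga
Dnm2, 12 bases, upstream (chr9:21489910-21489921, plus strand): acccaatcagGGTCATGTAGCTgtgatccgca
Dnm2, 12 bases, downstream (chr9:21490658-21490669, plus strand): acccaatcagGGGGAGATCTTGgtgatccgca
Mef2d, 21 bases (chr3:88161781-88161801, plus strand): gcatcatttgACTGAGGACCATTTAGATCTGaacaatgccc
Mef2a, 24 bases (chr7:67244521-67244544, minus strand): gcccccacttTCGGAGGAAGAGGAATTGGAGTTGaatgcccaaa
Anxa6, 18 bases (chr11:54987051-54987068, minus strand): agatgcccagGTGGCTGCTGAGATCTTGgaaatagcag
Pdlim5, 18 bases (chr3:142304705-142304722, minus strand): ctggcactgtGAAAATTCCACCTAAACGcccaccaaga

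Inclusion was split between near-complete use and absence. Of the 1155 microexons, 401 (34.7%) were in 90% or more of their spanning reads, 146 (12.6%) were in 10 to 90%, and 608 (52.6%) were in under 10%, of which 554 were in no read at all. The median was 2.94%. Among the 92669 longer internal exons under the same read minimum the median was 100%, 79.1% were at 90% or more and 9.06% were at 0. The exact exon was read at least once for 601 microexons and in both libraries for 533. These counts carry no test, because the same reads chose the members.

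**Figure D1:**
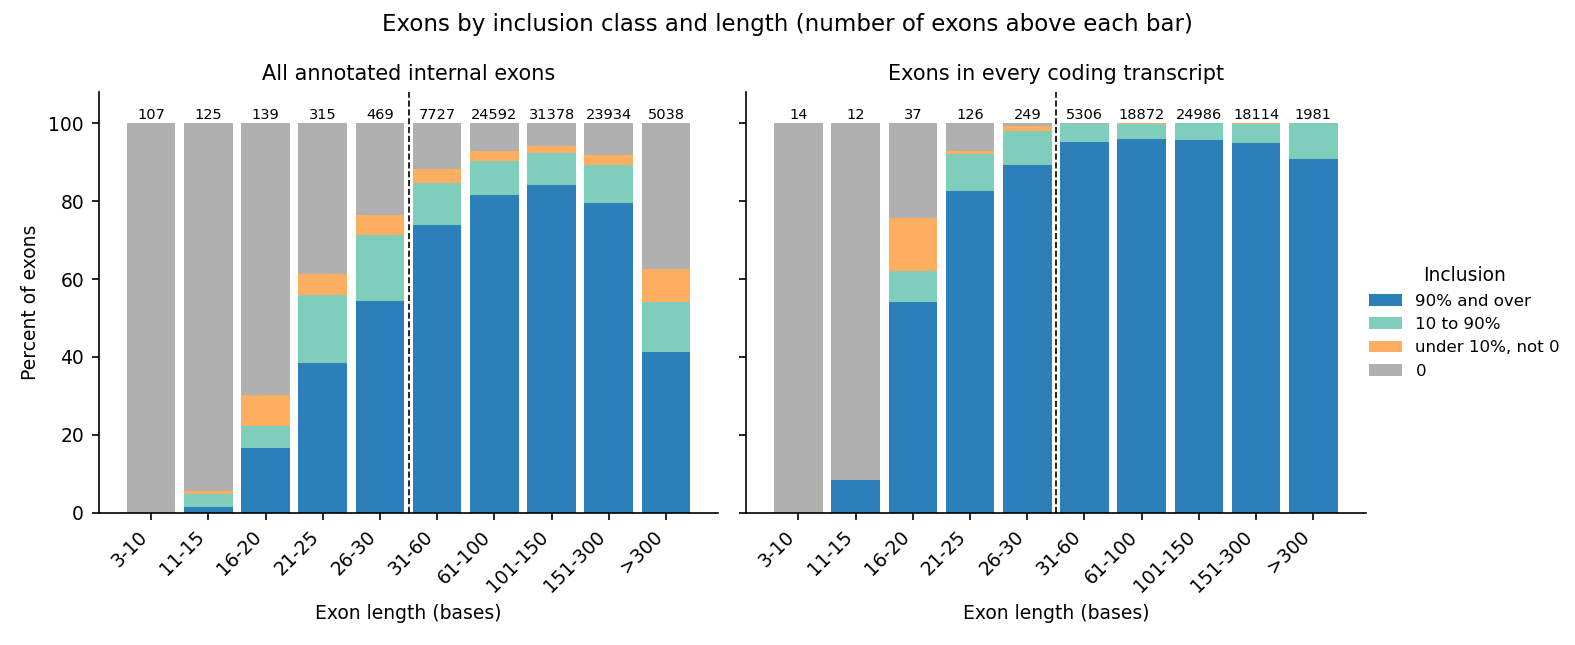
Share of annotated internal exons (y axis, percent of exons) in each class of inclusion, by exon length (x axis, bases), with microexons left of the dashed line and longer exons right of it, for all exons and for those in every coding transcript. Every microexon of 3 to 10 bases was at 0, while 54.4% of those of 26 to 30 bases were at 90% or more.

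Inclusion differed by length. All 107 microexons of 3 to 10 bases were at 0, over 19291 spanning reads, a read being counted once for each microexon it spans. Of the 125 of 11 to 15 bases, 118 were at 0 and 2 were at 90% or more. Of the 139 of 16 to 20 bases, 97 were at 0 and 23 were at 90% or more. The 315 of 21 to 25 bases had a median of 36.4%, with 121 at 90% or more, and the 469 of 26 to 30 bases had a median of 94.7%, with 255 at 90% or more. The 7727 exons of 31 to 60 bases had a median of 100%, with 73.9% of them at 90% or more. In the models themselves, whatever the annotation, internal exons of 3 to 11 bases occurred in 10 model exons with 23 reads, those of 12 to 15 bases held 195 reads, those of 16 to 20 bases 2664 reads and those of 21 to 30 bases 135128 reads. Whether the alignment could place exons this short was not tested at any length. A value at or near 0 therefore states what the models hold and not what the RNA held, also at 16 bases and over.

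Many annotated microexons are optional, so the same counts were made for the 438 that are in every protein-coding transcript spanning them, a subset defined after the values were seen. Their median inclusion was 99.5%, 347 were at 90% or more and 45 were at 0. Of the 69259 longer exons in every coding transcript, 95.3% were at 90% or more and 51 were at 0. In this subset inclusion reached high values at shorter lengths than among all members: the median of those of 16 to 20 bases was 90%, against 0% over all members of that length. All 14 of 3 to 10 bases were at 0, and so were 11 of the 12 of 11 to 15 bases. The exception was a 14-base exon of Col5a2, a chain of type V collagen, which was in 24 of 24 reads of replicate 1 and in 5 of 5 of replicate 2. Of the 37 of 16 to 20 bases, 20 were at 90% or more and 9 were at 0. At 21 to 25 bases 104 of 126 were at 90% or more, and at 26 to 30 bases 222 of 249. The 706 microexons that are spanned by coding transcripts but not held by all of them had a median of 0%. Of these, 52 were at 90% or more, 106 at 10 to 90% and 548 below. They include exons that none of the spanning coding transcripts holds, such as the 27-base exon of Cox5b, so not all are optional coding exons. No coding transcript spans the remaining 11.

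**Figure D2:**
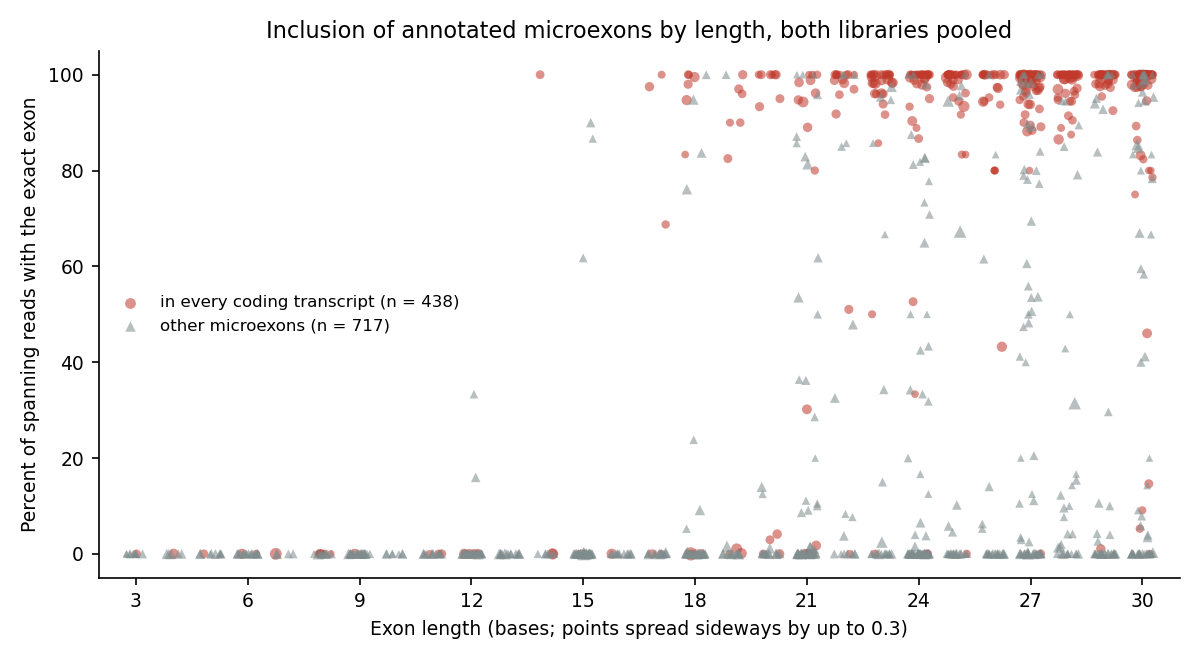
Inclusion of each of the 1155 microexons (y axis, percent of spanning reads, libraries pooled) by length (x axis, bases), with larger points for more spanning reads, and circles for those in every coding transcript. Below 16 bases 7 microexons had any read with the exact exon, and from 21 bases most exons in every coding transcript lay at 90% or more.

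Most microexons lie in coding sequence. By the annotation 973 (84.2%) were inside the coding part of a transcript, 29 (2.51%) straddled its edge, 51 (4.42%) lay in a 5′ UTR, 15 in a 3′ UTR and 87 (7.53%) in noncoding transcripts. A length that is a multiple of 3 was found in 51.1% of those at 90% or more, in 69.9% of those at 10 to 90% and in 56.3% of those under 10%. Across 21 to 30 bases the shares were 52.4%, 70.1% and 58.4%. Over all members a multiple of 3 was found in 56.2%, and among the longer internal exons in 39.0%. The classes of inclusion also differed in the share inside the coding part, 97.0%, 87.7% and 75% in the same order. Among microexons of 21 to 30 bases in every coding transcript, the median GC content was 48.2% for those at 90% or more and 50% for those under 10% (15 exons). The median length of the shorter neighbouring intron showed no single direction: over all microexons of 21 to 30 bases it was 486 bases for those at 90% or more and 471 for those under 10%, in every coding transcript 452 and 223 bases, and at 16 to 20 bases in every coding transcript 427.5 and 576 bases. Beside 10 of the 608 microexons under 10% the annotation places an intron under 30 bases, and beside none of the others.

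Reads without the exact exon fell into several kinds. Over all members they were 380265 reads, a read being counted once for each microexon it spans. Of these, 74.0% skipped the exon within an intron, 21.8% ran through it in a longer exon and 4.22% overlapped it with another edge. The counts are dominated by a few genes. Without Atp2a1 and Mylpf the shares were 74.1%, 14.3% and 11.5%. The 103150 skipping reads left still held 24085 at the 28-base exon of Myl1 and 10971 at its 25-base exon. They also held 8023 at the 7-base exon of Tnni2 and 2207 to 2288 at each of the 9 microexons of Tnnt3. These shares therefore also rest largely on few genes. By microexon, most reads held the exact exon in 487, skipped it in 416, held it within a longer exon in 118 and overlapped it with another edge in 126.

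The longer-exon kind includes abundant muscle genes. Mylpf, the fast regulatory myosin light chain, has a 15-base exon in 1 of its 3 coding transcripts that was in 0 of 25677 reads of replicate 1 and 0 of 37116 of replicate 2, and 62788 of these 62793 reads carried it inside a longer exon. Pygm, muscle glycogen phosphorylase, has a 21-base exon in 1 of 2 coding transcripts that was in 0 of 1903 and 0 of 595 reads, with 2496 reads running through it. For Cox5b, a subunit of cytochrome c oxidase, a 27-base exon of a noncoding transcript was in 0 of 912 and 0 of 1858 reads, and all of them ran through it. None of the 3 exact forms had a read in either library.

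For exons in every coding transcript, the reads that skipped them often used a splice site 1 to 30 bases away from the annotated one. A neighbouring site was called moved where it lay 1 to 30 bases from that of the annotated transcripts with the exon. Of 80 such microexons with at least 5 skipping reads, 44 had a moved site in most of them, 14 had the annotated sites, 21 had other junctions and 1 had no majority. Of the 44, the upstream exon's end (the donor) was moved in 34, the downstream exon's start (the acceptor) in 8 and both in 2. The commonest moves were 4 and 16 bases of the donor into the intron, in 4 microexons each, and the move equalled the length of the exon in 2. In reads that held the exact exon, 0.223% had a moved neighbouring site. What the bases past the annotated site were could not be read, because no genome sequence was used here.

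The most deeply read microexon is of this kind. Exon 2 of 23 of Atp2a1, the gene of the SERCA pump that returns calcium to the store of fast fibres, has 18 bases and is in the only annotated transcript that spans it. It was in 1 of 140642 spanning reads of replicate 1 and in 0 of 37652 of replicate 2, where a count of 0 allows up to 3 reads in any library. In 176972 of the 178277 skipping reads the donor of exon 1 lay 26 bases inside the intron that follows exon 1, and 66 reads used the annotated sites. Whether the alignment could place this exon was not tested. The exon at the same place in the paralogous pump gene Atp2a2, exon 2 of 20 and also 18 bases, was in 233 of 248 reads of replicate 1 (94.0%) and in 71 of 73 of replicate 2 (97.3%), a mean of 95.6% ± 2.34 (SD, n = 2). The sequences differ at 5 of the 18 exon bases, and at 12 of 38 with the neighbouring bases shown. Of the 17 reads of Atp2a2 that skipped the exon, 16 had a donor moved by 4 bases.

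**Figure D3:**
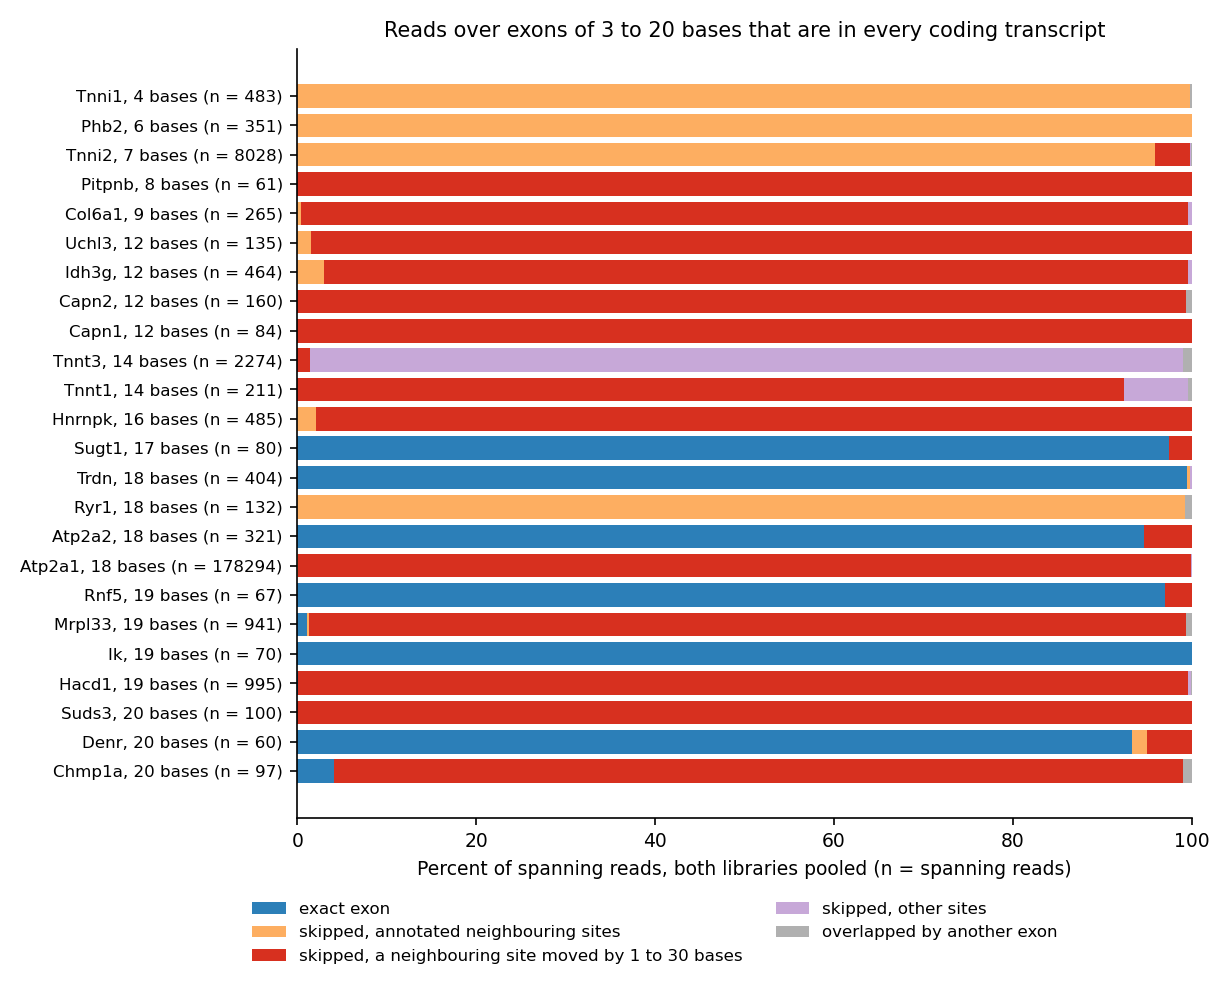
What the spanning reads held (x axis, percent of reads, libraries pooled) at the 24 microexons of up to 20 bases in every coding transcript with the most reads, ordered by length and chosen after their values were seen. Tnni1 and Tnni2 at the top were skipped mainly between annotated sites, Hnrnpk and Atp2a1 mainly with a moved site, and Trdn and Atp2a2 were read with the exact exon.

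Other short exons in every coding transcript were skipped with a moved site, skipped without one, or read. The 16-base exon of Hnrnpk, an RNA-binding protein, was in 0 of 307 reads of replicate 1 and 0 of 178 of replicate 2, and in 463 of 485 reads the donor was moved by 16 bases, the length of the exon. In Hacd1, a dehydratase of very long chain fatty acid synthesis that muscle makes in quantity, the 19-base exon was in 1 of 995 pooled reads, with the donor moved by 27 bases in 988. In Mrpl33, a protein of the mitochondrial ribosome, the 19-base exon was in 10 of 941 reads, with the donor moved by 8 bases in 921. The 6-base exon of Phb2, prohibitin 2 of the mitochondrial inner membrane, was in 0 of 351 reads, and all 351 joined the annotated neighbouring sites directly. The 14-base exon of Tnnt3 was in 0 of 2274 reads, and 2221 of these skipped it with other junctions. The short exons that were read with their exact edges stand beside these: 23 microexons of 16 to 20 bases in 23 genes were at 90% or more, 20 of them in every coding transcript, spanned by 6 to 424 reads. The 18-base exon of Trdn was in 230 of 232 reads of replicate 1 and in all 172 of replicate 2, and the 20-base exon of Nap1l1, a histone chaperone, was in all 28 and all 30.

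The sarcomere gives the most deeply read included microexons. All 7 microexons of the sarcomeric myosin heavy chains have 28 bases and were at 90% or more. Myh4, the chain of the fastest fibres, had the exon in 20699 of 20792 reads of replicate 1 and in 2587 of 2604 of replicate 2, a mean of 99.4% ± 0.145 (SD, n = 2). Myh1, Myh2 and the slow chain Myh7 had means of 98.9% ± 0.575, 99.2% ± 0.154 and 99.8% ± 0.0918. The developmental chains rested on few reads, Myh8 on 29 of 30 and 5 of 6 and Myh3 on 28 of 28 and 9 of 9, and the heart chain Myh6 on 8 of 8 and 2 of 2. In the sequences above, the exon of Myh4 differed at 2 bases from that of Myh8, at 3 from those of Myh7 and Myh3, at 5 from that of Myh2 and at 6 from that of Myh1.

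Among the 16 microexons of other sarcomere and Z-disc genes, 7 were at 90% or more, 1 at 10 to 90% and 8 under 10%. Mybpc2, the fast myosin-binding protein C, had its 30-base exon in 9157 of 9174 reads of replicate 1 and in 2400 of 2403 of replicate 2. For the M-band proteins Myom2 and Myom1, a 23-base exon of Myom2 was in 1130 of 1141 and 292 of 294 reads, and of the pair of 23-base exons of Myom1 the downstream one was in 637 of 651 and 140 of 146 and the upstream one, held by 1 of 3 coding transcripts, in 0 of 649 and 0 of 146. Pdlim7, a Z-disc adaptor, had a 17-base exon in 4 of 550 and 0 of 669 reads. Pdlim5, a related adaptor, has 5 microexons, of which the 18-base one was in 255 of 268 reads of replicate 1 and in 147 of 156 of replicate 2. Those of 5, 15, 17 and 26 bases were each in 0 of 268 and 0 of 156 reads, which allows a share of up to 0.708% of the pooled reads.

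In the troponin genes the short exons were mostly not read. The 3 troponin T genes, whose products tie the troponin complex to tropomyosin, have 16 microexons, with 2 at 10 to 90%, 14 under 10% and 11 at 0. Tnnt3, the fast form, has 9 of 8 to 19 bases, the highest at 1.61%, a 19-base exon in 18 of 1143 reads of replicate 1 and 20 of 1222 of replicate 2. Tnnt1, the slow form, had its 27-base exon in 83 of 91 reads of replicate 1 (91.2%) and in 103 of 120 of replicate 2 (85.8%). Its 22-base exon was in 46 of 91 (50.5%) and 55 of 120 (45.8%). Forms of 16 and 19 bases that share an edge with this exon are separate members and count among the 11 at 0. Each was overlapped with another edge in 103 of 213 pooled reads, so these zeros are not independent of the 22-base form. The 14-base exon of Tnnt1, in every coding transcript, was in 0 of 91 and 0 of 120 reads, with the donor moved by 12 bases in 195.

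The troponin I genes, whose products are the inhibitory subunit, show long and very short microexons side by side. In Tnni2, the fast form, a 30-base exon was in 4103 of 4598 reads of replicate 1 (89.2%) and in 2757 of 3430 of replicate 2 (80.4%). The 7-base exon of the same gene, in all 3 coding transcripts, was in 0 of the same 4598 and 0 of the same 3430 reads, and 7699 of 8023 skipping reads joined the annotated sites on its sides. Tnni1, the slow form, had its 30-base exon in all 178 and all 305 reads and its 4-base exon, in all 6 coding transcripts that span it, in 0 of 178 and 0 of 305, with 482 reads joining the annotated sites.

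The genes of the triad, where the T-tubule meets the sarcoplasmic reticulum, and of calcium handling held 24 microexons, 11 at 90% or more, 1 at 10 to 90% and 12 under 10%. Trdn, triadin, which links calsequestrin to the calcium release channel, gave 10 of the 11. Of its 11 microexons of 18 to 30 bases, the 10 lay between 90.3% and 99.8%. The other, a 30-base exon at chr10:33433701-33433730, was in 48 of 113 reads of replicate 1 (42.5%, 95% interval 33.8 to 51.7%) and in 33 of 63 of replicate 2 (52.4%, 40.3 to 64.2%), although its only annotated spanning transcript holds it. Ryr1, the calcium release channel, had 5 microexons of 15 to 30 bases, all at 0. Its 18-base exon, in all 3 coding transcripts that span it, was in 0 of 111 and 0 of 21 reads, and 131 of the 132 skipped it between the annotated sites. Cacnb1, a subunit of the voltage sensor channel, had a 20-base exon in 4 of 420 and 4 of 270 reads. Bin1, which shapes the T-tubule membrane, had a 24-base exon of 1 of 4 coding transcripts in 0 of 1005 and 0 of 570.

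The Mef2 factors, transcription factors of muscle genes, have 3 microexons. Those of Mef2d and Mef2a are the exon known as β, which striated muscle and brain include. The 21-base exon of Mef2d was in 75 of 93 reads of replicate 1 (80.6%) and in 22 of 24 of replicate 2 (91.7%), and the 24-base exon of Mef2a in 32 of 38 (84.2%) and 11 of 14 (78.6%). The 24-base exon of Mef2c was in 0 of 130 and 0 of 54, although 8 of its 15 coding transcripts hold it, and a count of 0 allows up to 1.63% of the pooled reads. Mef2c was the lowest of the 3 in both libraries.

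Collagen genes gave the most microexons of the lists, 40 in 11 genes, of which 29 were at 90% or more, 2 at 10 to 90% and 9 at 0. Exons of these genes code for short runs of the triple helix, and 33 of the 40 have a length that is a multiple of 3. Col4a1, a chain of the basement membrane, had 27-base exons in 591 of 595 and 104 of 105 reads and in 574 of 574 and 99 of 99. A 17-base exon of Col4a1, in 0 of the 2 coding transcripts that span it, was in 0 of 934 and 0 of 222. Col6a1, of type VI collagen, had a 30-base exon in 201 of 202 and 76 of 76 reads. Its 9-base exon was in 0 of 196 and 0 of 69, with the donor moved by 4 bases in 260, and a pair of 21-base exons were each in no read of either library, 0 of 200 pooled. All 3 of them are in the only coding transcript that spans them. Col13a1, a transmembrane collagen, has 12 microexons, 10 of them among the 29 at 90% or more, but each is spanned by only 5 reads.

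Further lists also had few microexons that were read. The neuromuscular junction and adhesion genes had 5 microexons in 2 genes, Agrn and Ncam1, all at 0 and spanned by a median of 7 reads. The best covered, a 24-base exon of Agrn, the nerve-derived organiser of the junction, was in 0 of 9 and 0 of 4 reads, which allows up to 23.1% of the pooled reads. The cytoskeleton, trafficking and adaptor genes had 37 microexons in 18 genes, with 3 at 90% or more, 6 at 10 to 90% and 28 under 10%. Dctn1, a subunit of dynactin, which joins dynein to its cargo, had a 21-base exon in 191 of 347 reads of replicate 1 and in 44 of 92 of replicate 2, a mean of 51.4% ± 5.10 (SD, n = 2). Its other microexons, of 15, 18 and 21 bases, held between 0 and 0.229%. Abi1, of the actin-regulating WAVE complex, had a 15-base exon in 7 of 9 and 6 of 6 reads, and Sptan1, a spectrin, a 15-base exon in 18 of 30 and 3 of 4 and an 18-base exon in 33 of 33 and 6 of 6.

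Reads were also counted for the genes of splicing factors. Srrm4 had 0 reads in both libraries and its relative Srrm3 had 0 and 1. The RNA-binding proteins of muscle Rbm24 and Rbm38 had reads in both, 257 in replicate 1 and 129 in replicate 2 for Rbm24, and 269 and 163 for Rbm38. Mbnl2 had 256 and 68, Mbnl1 86 and 39, Celf2 65 and 14 and Rbfox1 40 and 11, while Ptbp1, a repressor of neuronal and muscle exons, had 8 and 5. Mbnl3 had 0 in both libraries. No read stood under the symbol Qki, and whether that gene is listed under another symbol was not checked. Of factors best known from neurons Nova1 had 4 and 6 and Ptbp2 5 and 7. These are reads per library, not per length, and the genes are not compared with each other.

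The libraries held 1316937 reads in 81166 models for replicate 1 and 1204188 reads in 74548 models for replicate 2. They differed in the kinds of model. Models with only a part of an annotated intron chain (ISM) held 109838 reads of replicate 1 and 142416 of replicate 2. Those with unannotated chains of the class NNC held 176499 and 58624. Of the 28804 and 12523 reads of Myh4, 20792 and 2604 spanned its microexon. Markers of skeletal muscle took 260363 and 264933 reads, all 8 being read in both libraries, and the 8 neuronal markers took 4 and 4, with 5 of them at 0 in both. Schwann cell markers took 732 and 2733 reads, fibroblast markers 9889 and 3759 and endothelial markers 125 and 39. In such bulk tissue, fewer cells of a type and less RNA per cell cannot be told apart, and the part of these levels in the inclusion values was not tested.

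At 10 to 90% inclusion, reads with and without the exact exon were both common. Of the 146 microexons in this class, 37 had at least 20 spanning reads in each library, and the 25 with the most reads are named. Values are given for replicate 1 and then replicate 2. Tmed2, a cargo receptor of the early secretory pathway, had its 21-base exon in 384 of 459 (83.7%) and 239 of 307 (77.9%). Anxa6, a membrane-binding annexin, had its 18-base exon in 231 of 302 (76.5%) and 135 of 179 (75.4%), and Ppp3ca, the catalytic subunit of calcineurin, its 30-base exon in 248 of 296 (83.8%) and 118 of 136 (86.8%). For these genes the intervals of the libraries overlap. The class itself depends on which reads count. A narrower choice takes reads with the exact exon or with a junction between its neighbouring sites, those of annotated or read models that hold it. Among such reads the 21-base and 22-base exons of Car14 and the 22-base and 27-base exons of Tnnt1 were at 100%. So were the 28-base exon of Myl6 and the 18-base exon of Lrrfip1.

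**Figure D4:**
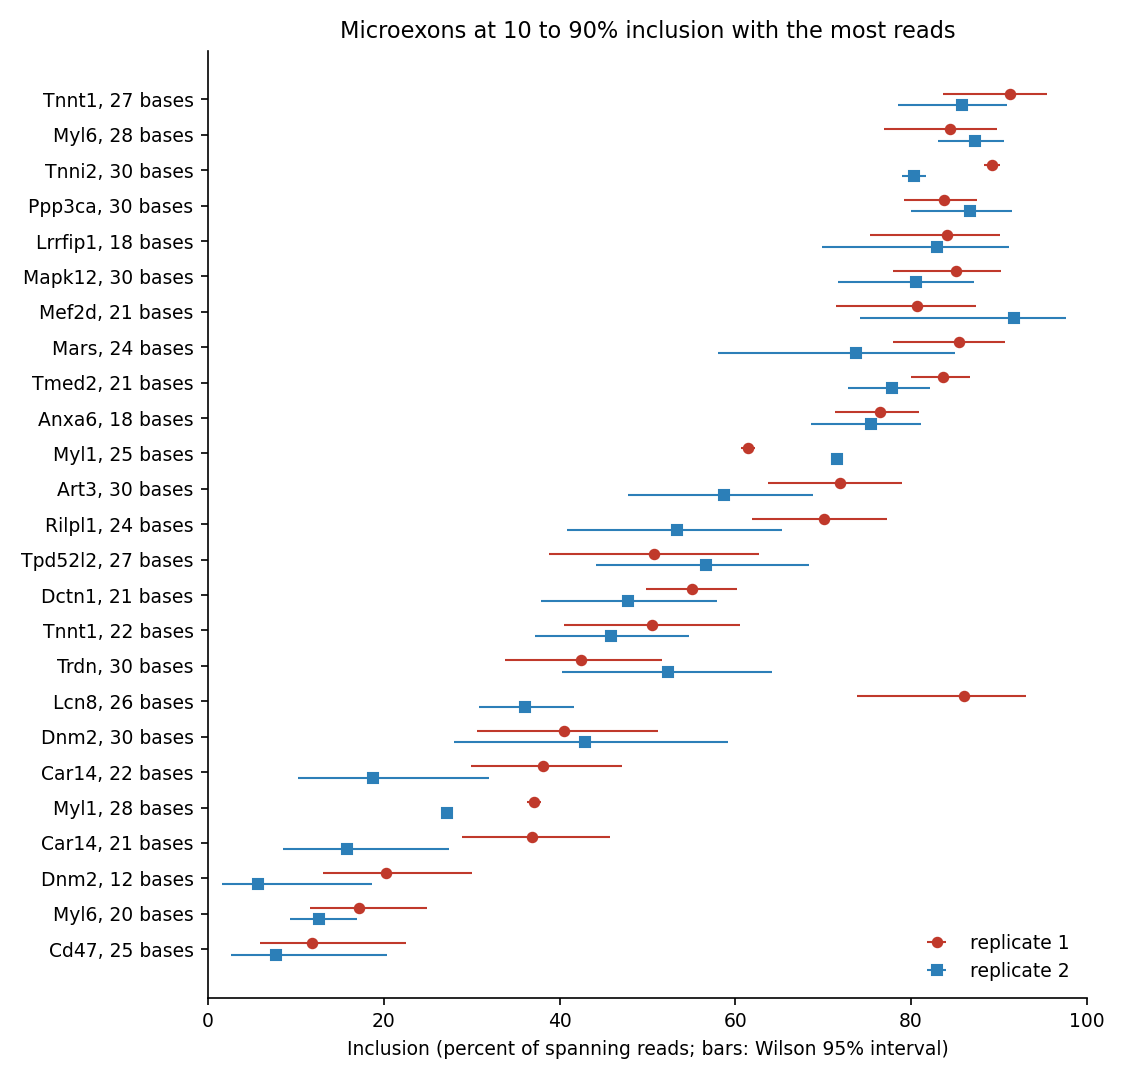
Inclusion (x axis, percent of spanning reads, with Wilson 95% intervals) in replicate 1 (circles) and replicate 2 (squares, below) of the 25 microexons at 10 to 90% with the most reads among those spanned by at least 20 reads in each library. Most intervals overlap, and those of both Myl1 exons, Lcn8, Tnni2 and the 21-base exon of Car14 lie apart.

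Further ones range widely. Mapk12, a stress kinase prominent in muscle, had its 30-base exon in 109 of 128 and 79 of 98 reads, and Art3, an ADP-ribosyltransferase family member, a 30-base exon in 95 of 132 and 47 of 80. Lrrfip1 had an 18-base exon in 79 of 94 and 39 of 47, Mars, a tRNA synthetase for methionine, a 24-base exon in 100 of 117 and 28 of 38, and Rilpl1 a 24-base exon in 94 of 134 and 32 of 60. Tpd52l2 had a 27-base exon in 32 of 63 and 34 of 60, and Cd47, a cell surface receptor, a 25-base exon in 7 of 59 and 3 of 39. In none of these did the difference between the libraries pass the test given below, which does not show that the libraries were alike.

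Long reads hold neighbouring microexons of one molecule, and 7 pairs at 10 to 90% could be read this way. Myl1 makes the fast essential myosin light chains MLC1f and MLC3f from separate promoters. Its 25-base and 28-base exons were mostly exclusive: of 15024 reads of replicate 1 spanning both, 59.7% held the first only, 35.4% the second only, 1.74% both and 3.19% neither, and of 20146 reads of replicate 2 the shares were 69.8%, 25.4%, 1.83% and 2.98%. Dnm2, dynamin 2, a GTPase of membrane fission, has a 30-base exon and a 12-base exon downstream that were never read together, in 0 of 84 and 0 of 35 reads. The 30-base exon alone was in 34 and 15 reads, the 12-base exon alone in 17 and 2, and neither in 33 and 18. The other 12-base exon of Dnm2, which precedes the same following exon, was in 0 of 84 and 0 of 35 reads.

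In 2 pairs the exons went together. In Car14, a membrane-bound carbonic anhydrase, the 21-base and 22-base exons were both present in 44 of 117 reads of replicate 1 and 9 of 48 of replicate 2, both absent in 72 and 39, and parted in 1 and 0. In Mtmr1, a phosphoinositide phosphatase of the myotubularin family, the 24-base and 27-base exons were both present in 22 of 26 and 3 of 6 reads, and parted in 1 and 0. Tnnt1 and Myl6 were divided in other ways. In Tnnt1 the 27-base exon occurred without the 22-base exon in 37 of 91 and 53 of 120 reads, the 22-base exon without the 27-base exon in 0 and 5, both in 46 and 50 and neither in 8 and 12. Myl6, a nonmuscle and smooth muscle essential light chain, held its 28-base exon only in 88 of 122 and 232 of 300 reads, both that and a 20-base exon in 15 and 30, the 20-base exon only in 6 and 8 and neither in 13 and 30. Ptk2, focal adhesion kinase, had too few reads, 13 and 8, to compare.

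Inclusion was compared between replicate 1 and replicate 2 by Fisher's exact test, two-sided, in all 26259 internal exons with at least 20 spanning reads in each library, with Benjamini-Hochberg adjustment over all of them, and an exon was called where the adjusted p was under 0.05 and the libraries differed by at least 10 percentage points. Of the 387 microexons tested, 2 were called, beside 34 of all 26259 exons (0.129%), and 15 had an unadjusted p under 0.05, beside 541 of all 26259. The difference was within 5 points in 352 of the 387 (91.0%), most of which lie under 10% or at 90% or more, where it has little room. Among the 37 at 10 to 90% it was within 5 points in 12 (32.4%), its median size was 7.69 points and 8 had an unadjusted p under 0.05. For the 1498 longer exons at 10 to 90% it was within 5 points in 638 (42.6%). Its median size there was 6.15 points and 146 had an unadjusted p under 0.05. The p-values speak of these 2 libraries only, and no spread between animals enters them.

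**Figure D5:**
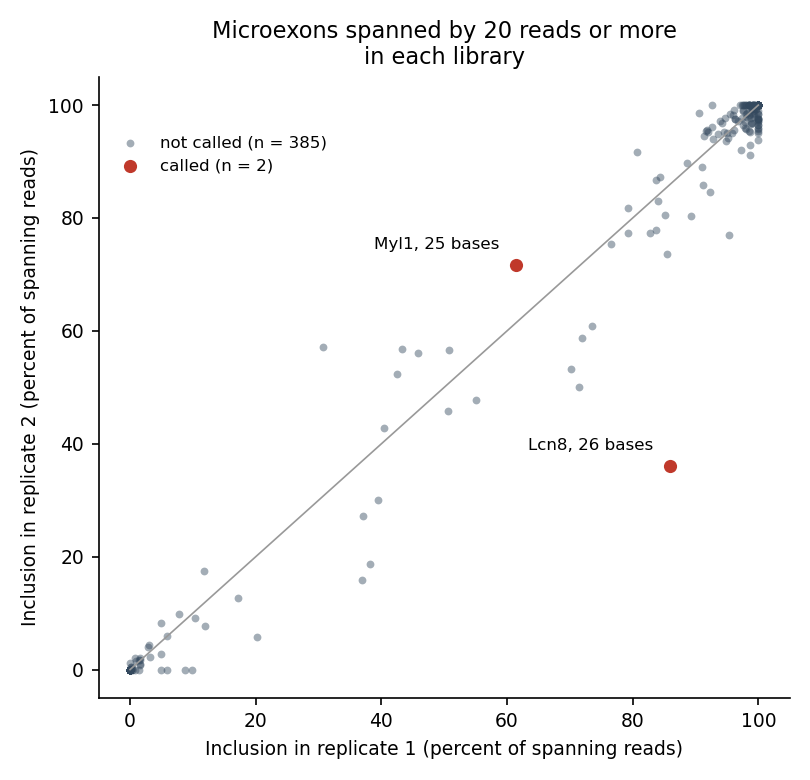
Inclusion in replicate 1 (x axis) and replicate 2 (y axis), in percent of spanning reads, of the 387 microexons with at least 20 spanning reads in each library, with the line of equal values. The 2 called microexons, Lcn8 below the line and Myl1 (25 bases) above it, are marked.

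The called ones lie on either side. Lcn8, a lipocalin gene, had its 26-base exon in 43 of 50 reads of replicate 1 (86%) and in 107 of 297 of replicate 2 (36.0%), a difference of 49.97 points with an adjusted p of 1.99e-08 by Fisher's exact test. In 174 of the 197 reads without it the exon lay within a longer exon. The call did not hold with the narrower choice of reads, those with the exact exon or a junction between its neighbouring sites. Of these, 43 of 47 of replicate 1 and 107 of 112 of replicate 2 held the exon, -4.05 points with an adjusted p of 1 by the same exact test. Without ISM models, those holding part of an annotated intron chain, only 5 reads spanned it in each library, 1 with the exon in each, and it was not tested. The 25-base exon of Myl1 was in 9230 of 15024 reads of replicate 1 (61.4%) and in 14430 of 20146 of replicate 2 (71.6%), a difference of -10.2 points (adjusted p 3.33e-86, Fisher's exact test). The 28-base exon of Myl1 went the other way, in 5575 of 15024 (37.1%) and 5484 of 20146 (27.2%), 9.89 points and so short of the size asked for, with an adjusted p of 8.75e-83 by the same exact test. The 30-base exon of Tnni2 differed by 8.86 points (adjusted p 4.60e-25, Fisher's exact test) and was not called for the same reason. Without ISM models that difference was 0.575 points, and with the narrower choice of reads 0.0481 points, each with an adjusted p of 1 by Fisher's exact test, while the Myl1 differences were 10.2 and 9.97 points for the 28-base exon and -9.99 and -10.3 points for the 25-base exon.

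The read minimum decided which exons were members. The 56 microexons with exactly 5 spanning reads had a median inclusion of 80%, with 21 at 0. The 60 annotated ones with 4 reads, just outside, had a median of 0%, with 38 at 0. Of the 56, 12 lie in the single gene Col13a1, 10 of them at 90% or more, so this contrast rests in part on 1 gene. Spanning reads ranged up to 178294 with a median of 33, and 417 members had under 20, so for these the interval of a single value is wide.

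Members were unevenly spread over genes, with 1 in each of 732 genes and 3 or more in 49, up to 12 in Col13a1. Ribosomal Rpl41, which makes a very short protein of the large subunit, shows how close edges are told apart. Its 23-base exon at chr10:128548658-128548680 was in 750 of 753 reads of replicate 1 and 2392 of 2394 of replicate 2. An upstream exon is annotated with 1 end and with a pair of starts that lie 2 bases apart. The 25-base form was in 693 of 753 and 2281 of 2394 reads and the 23-base form in 24 and 53. Selenow, a selenoprotein abundant in muscle, had its 25-base exon in 951 of 958 and 1526 of 1534 reads.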

How the data were processed

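Each library came with 2 files deposited by the authors, 1 giving whole-number read counts for transcript models, per the file headers, and 1 listing where the exons of those models lie. The annotation attributes name TALON, which assigns long reads to models, and the notes beside the files name mm10 and GENCODE M21. Aligner, platform and TALON version were not given in the sources used here. Values were not normalized. Known models have an annotated intron chain, ISM models (incomplete splice matches) have a part of such a chain, and NIC and NNC models are unannotated chains.

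Reads of these 4 classes in known genes were used. A read spans an exon when its model, of the same gene, starts before and ends after it. Reads were divided into those with the exact exon, those that skip it, and those in which it lies within a longer exon or is overlapped with another edge. Intervals are Wilson 95% intervals, and these and the limit of 3 counts for a count of 0 cover counting error only. Exons were compared between the libraries with Fisher's exact test and Benjamini-Hochberg adjustment (Python 3.11.15, SciPy 1.17.1, pandas 2.3.3), tested on simulated data. Coordinates count from 1 on mm10.

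The members and gene lists were chosen with earlier results of these data known. Named are the 12 genes' microexons with the most spanning reads, 25 at 10 to 90%, 8 under 10%, every called one, the 6 shortest with at least 20 reads, genes with 3 or more members, and up to 4 examples per gene list, and not all of these are printed. Microexons named for other reasons were chosen after their values were seen: they are those of up to 20 bases in the plot of short exons and those of Col5a2, Nap1l1, Abi1, Atp2a2, Tnni1 (30 bases), Mtmr1, Myh8, Myh3 and Myh6. Alternatives were another choice of models and of spanning reads, other minimums and length limits, merged exons and each library alone.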

Additional observations from a re-analysis of the deposited data

How the results depend on the processing

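No paired analysis was possible because the labels give a single group. Junction-informative reads are those with the exact exon or with a junction between its neighbouring sites, those of annotated or read models that hold it. With only these reads 767 microexons remained and their median was 100%, with 93 at 10 to 90% and 219 under 10%. Medians were 6.15% at 16 to 20 bases and 100% at 21 to 25 and at 26 to 30 bases, and 4 of 11 to 15 bases were at 90% or more. Reads that overlap the exon without holding it exactly, and skips at moved sites that no model with the exon uses, leave the count by construction. Of 9 exons of 3 to 15 bases in every coding transcript 8 were still at 0. With at least 20 spanning reads there were 738 microexons, 262 at 90% or more, 90 at 10 to 90% and 386 under 10%, and with a limit of 27 bases 238 at 90% or more. With either library alone the median at 21 to 25 bases was 23.5 to 26.7%, and 47069 to 67173 longer exons were at 90% or more.

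Chosen after seeing the data, "every coding transcript" was replaced by every annotated transcript of any type, which left 14 of 15 exons of 3 to 15 bases at 0, and limited to exons spanned by at least 2 coding transcripts, which left 17 of 3 to 15 bases and 243 of 21 to 30 bases, 214 of them at 90% or more. Between the libraries 4 microexons were called with no minimum difference, 1 without ISM models (the 28-base exon of Myl1) and 1 with junction-informative reads (the 25-base exon of Myl1), so that Lcn8 was lost in both. The other 113 alternative values of these results stayed within 1.5 times (counts) or within the spread of the libraries (medians). Of the single exons with 40 or more reads, 32 of 102 moved by more than their spread or interval with junction-informative reads, 16 of the 102 into another class of inclusion, 13 of 140 with replicate 2 alone, 4 with replicate 1 alone, 3 without ISM models and 1 where models had to reach 20 bases beyond the exon. Limits are that 417 members had under 20 reads and that values at or near 0, below 16 bases and above, rest on what the models could hold.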
